A study of Homo sapiens with 6 samples.

Results

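The transcripts examined here encode the proteins that prepare replication origins and run the replication fork, 47 genes listed by name. The list was chosen with earlier results of these data known. All 47 were found among the 62700 gene IDs of the deposited tables, and all 47 were among the 15685 genes with enough counts to be tested. They were measured by RNA sequencing in OVCAR8, an established human ovarian carcinoma cell line labelled wild type. All cells of both groups had gone overnight without serum. The 3 Control libraries then received PBS, and the 3 Leptin libraries received leptin, the adipocyte hormone, at 100 ng/ml for 24 h. The deposited study asked which transcripts lie downstream of leptin in connection with stem-like properties of ovarian cancer cells. Separate cultures are not stated for the replicates in the labels, so each p-value refers to spread among libraries that may be technical.

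DNA replication is prepared in G1, when the origin recognition complex (ORC) together with CDC6 and CDT1 loads the MCM ring onto origins. In S phase the kinases that act on origins, with CDC45 and the GINS complex, turn the ring into the active helicase, and primase, the replicative polymerases, the sliding clamp and its loader copy both strands behind it. Transcripts of many of these genes are made in late G1 and S phase under E2F transcription factors, so that their levels in a culture are known to follow the share of cycling cells. Leptin signals through a receptor of the cytokine receptor class.

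Each library held between 15609425 and 18577775 counts, and the lowest count of any of the 47 genes in any library was 71. The leptin libraries differed more among themselves than the controls did (chi-square per gene of 19.2 to 45.4 between leptin libraries and 5.24 to 5.61 between controls). Leptin replicate 1 stood apart from leptin replicates 2 and 3 on the first principal component, at -2.15 against 46.3 and 39.6, with controls between -31.0 and -23.6. The tissue label was checked on 10 markers of epithelial ovarian carcinoma, of which 8 were tested. Their summed level lay between 3327 and 3635 CPM in controls and between 3650 and 4051 CPM with leptin, where CPM is the count scaled to library size by TMM. Most of that sum was KRT8, at 2138 ± 116 CPM under PBS and 2321 ± 151 CPM under leptin. PAX8, the lineage factor of tubal and ovarian epithelium, stood at 364 ± 8.84 CPM under PBS and 364 ± 5.48 CPM under leptin. KRT7 stood at 281, 355 and 359 CPM in control replicates 1 to 3 and at 283, 744 and 615 CPM in leptin replicates 1 to 3 (log2 fold change 0.72 ± 0.30, adjusted p = 0.166 in edgeR), so it was above every control in leptin replicates 2 and 3 alone. EPCAM and WT1 were low, with mean levels of 3.98 and 2.39 CPM under PBS and 5.48 and 2.98 CPM under leptin. MUC16 and MSLN were near 0 in both groups, and KRT19 was the only one of the 8 called different, falling from 102 ± 9.63 to 38.7 ± 0.967 CPM (log2 fold change -1.40 ± 0.11 SE, adjusted p = 0.000139 in edgeR). Of 14 markers of leukocytes, endothelium, fibroblasts and fat cells, 9 had too few counts to test, and PTPRC and CD3E had 0 counts in all 6 libraries. The summed level of the 14 lay between 459 and 655 CPM in controls and between 357 and 522 CPM with leptin, nearly all of it COL1A1, and without COL1A1 between 8.33 and 10.2 CPM and between 4.93 and 15.8 CPM. None of the 5 tested markers of other cell types was called by edgeR, while 3 had an unadjusted p under 0.05. The part of these markers in the results below was not tested.

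The replication genes were lower with leptin as a group. Of the 47, 29 fell, 0 rose and 18 did not pass the test (edgeR quasi-likelihood test, Benjamini-Hochberg adjusted p under 0.05 over all tested genes). Over all tested genes 9.81% were called, 4.09% as lower and 5.71% as higher, against 61.7% of the replication genes called lower. DESeq2 called 30 of the 47 lower and 0 higher, where it called 6.2% of all genes with an adjusted p lower. For limma-voom the counts were 28 and 0, beside 3.95% of all tested genes called lower. By edgeR's unadjusted p under 0.05, 39 of the 47 were lower, against 12.2% of all tested genes, and 0 were higher, against 15.4%. In 40 of the 47 every leptin library lay below every control, which held for 16.2% of all tested genes. The log2 fold change, leptin minus control, was negative in 43 of 47 (49.2% of all tested genes). Its median was -0.59 over the 47 genes and 0.01 over all tested genes, and it ranged from -1.02 for CLSPN to 0.22 for POLD1. The genes called lower kept between 49.4% and 72.6% of their control level, and 2 of them, CLSPN and MCM10, fell at least 2-fold (0.816% of all tested genes). In RNA from whole cultures, fewer cells in S phase and less of each transcript per cell cannot be told apart.

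The size of the group's shift was alike whichever library was left out, while the number of calls was not. The median log2 fold change lay between -0.64 and -0.51 over the 6 fits that each left out 1 library. Without control replicates 1, 2 and 3 in turn, 6, 14 and 6 of the 47 were called lower, against backgrounds of 0.371%, 0.946% and 0.548% of tested genes. Without leptin replicates 1, 2 and 3 in turn, 36, 22 and 13 were called lower, against 13.5%, 2.32% and 0.748%. The same backgrounds stand beside the counts by role given below for each of these fits. The genes CDC6, MCM4, MCM6, MCM10 and CLSPN passed in all 6. Without leptin replicate 1 all 29 passed again, and 7 further genes were called lower and 2, POLD1 and POLD2, higher (16% of tested genes were called higher in that fit). Leptin replicate 1 was the highest of the 3 leptin libraries for 23 of the 29 genes called lower. It was nevertheless below the control mean for 46 of the 47 genes, and leptin replicates 2 and 3 for 42 and 43. Of all tested genes, 49.9%, 49.5% and 49.8% were below it in leptin replicates 1 to 3. The median difference from the controls was -0.49, -0.56 and -0.64 on the log2 scale in leptin replicates 1 to 3, and between -0.06 and 0.06 in each control against the other controls.

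**Figure D1:**
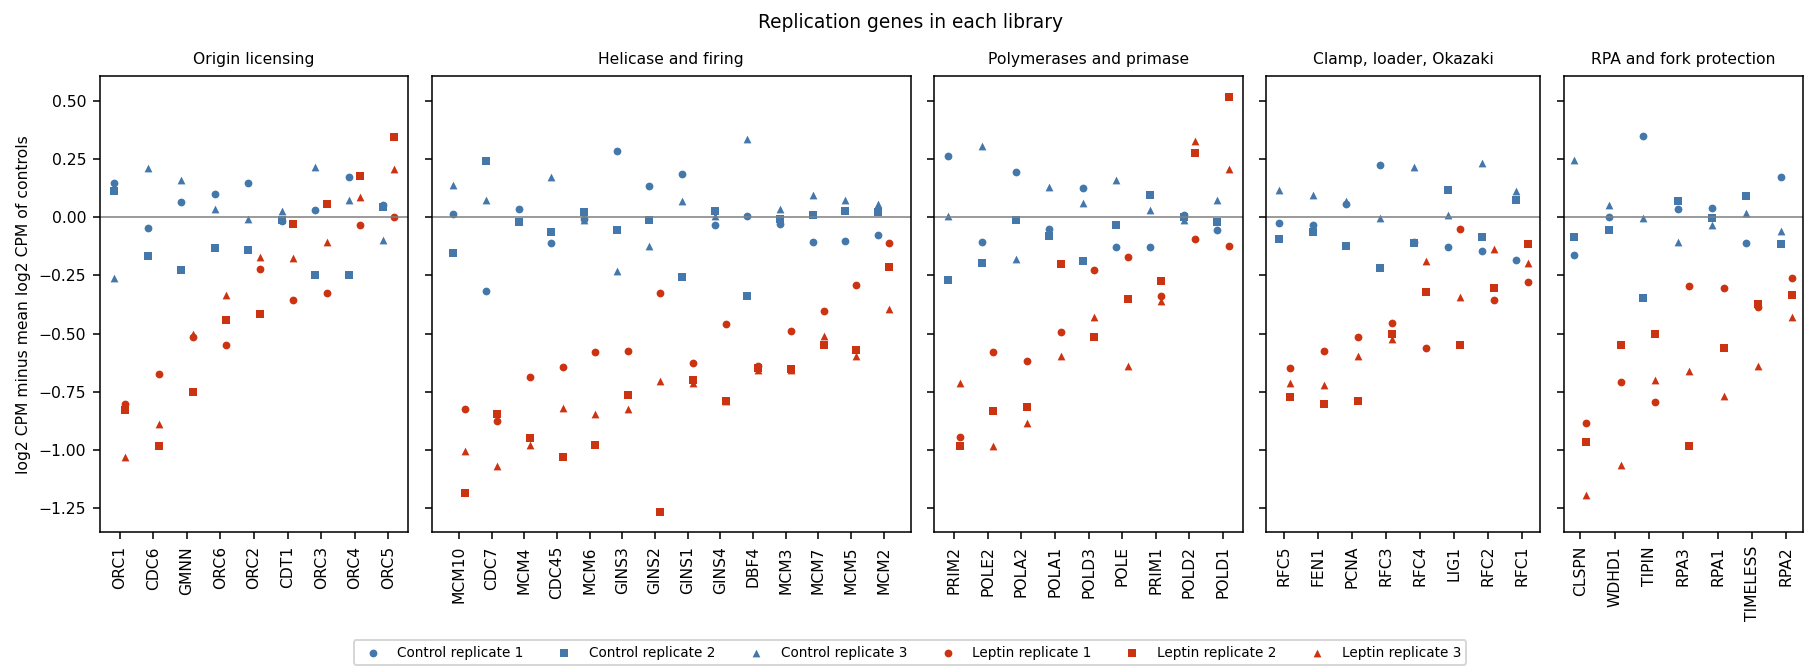
Log2 CPM of each replication gene in each library minus the mean log2 CPM of controls. A leptin library is set against the mean of the 3 controls, and a control against the mean of the other controls. Genes are grouped by role and ordered by fold change, with blue points for Control, red for Leptin, and 1 symbol per replicate number. All 14 helicase genes have 3 leptin points below 3 control points, while ORC4, ORC5, POLD1 and POLD2 have a mean above 0.

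The shift as counted was unequal between steps of replication, with the medians farthest from 0 among helicase and fork protection genes. The median log2 fold change was -0.27 for the 9 licensing genes, -0.70 for the 14 helicase and origin firing genes, -0.39 for the 9 polymerase and primase genes, -0.43 for the 8 genes of the clamp, its loader and Okazaki fragment processing, and -0.62 for the 7 genes of RPA and fork protection. The share of each group called lower was 3 of 9, 13 of 14, 3 of 9, 4 of 8 and 6 of 7 in the same order, against 4.09% of all tested genes. The order of these shares depended on the libraries kept. Without leptin replicate 3, for example, 3 of 8 clamp genes and 1 of 7 fork protection genes were called lower. The differences between these groups of genes were not tested, since genes are not replicates.

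**Figure D2:**
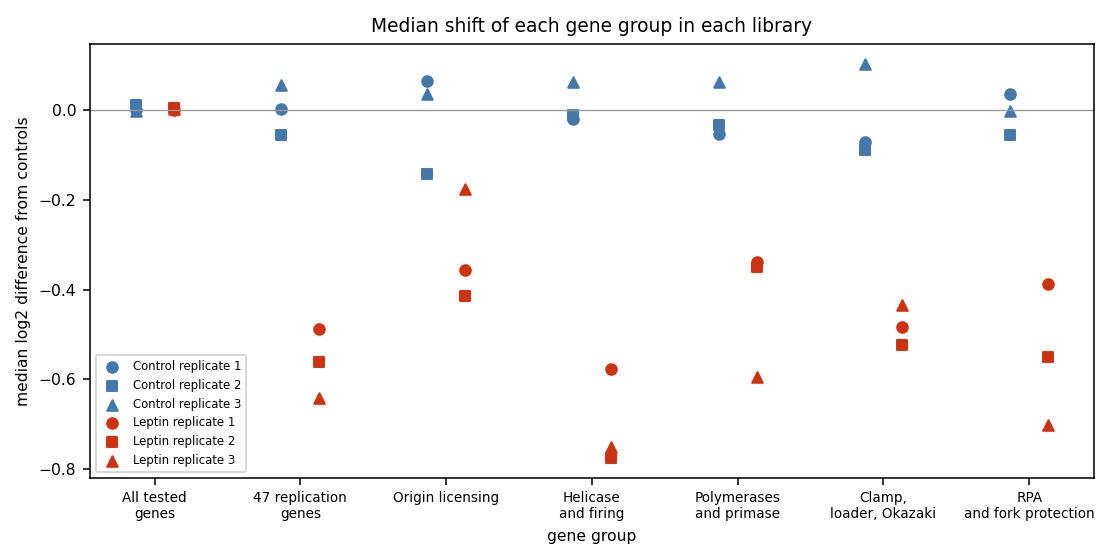
Median over each gene group of the log2 difference from the controls, for each library (a leptin library against the mean of the 3 controls, a control against the mean of the other controls). The leptin libraries lie between -0.64 and -0.49 for the 47 genes, and all 6 libraries lie near 0 for all tested genes.

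Promoters of these genes carried E2F words more often than promoters at large, and 4 of them are printed because their genes fell and hold such a word. Promoter windows from RefSeq (GRCh38.p14, 250 bases before to 50 after the start of transcription) were found by symbol for 41 of the 47 genes. The unmatched genes were MCM4, MCM5, GINS4, POLD3, RPA2 and RPA3. Windows were searched on both strands for the E2F words TTTCCCGC, TTTCGCGC, TTTGCCGC and TTTGGCGC, some of which can overlap each other on opposite strands. At least 1 word was found in 21 of the 41 genes (51.2%), against 3.99% of all 27305 genes with a window. That wider set includes genes that were not tested here. Among tested genes with a window the share was higher, as 741 held a word and 10550 did not. By window, 40.4% of the 52 windows of these genes and 3.31% of all 35116 windows of the same length held a word. The word CCAAT, on either strand, was in 24 of the 41 (58.5%) and in 39.7% of all genes. Median GC content of the windows was 64.3% for these genes and 58.7% for all. In the windows below, 250 bases before and 30 after the start are given 5′ to 3′ on the gene's own strand, and capitals mark the E2F words.
CLSPN (chr1:35769949-35770228, minus strand): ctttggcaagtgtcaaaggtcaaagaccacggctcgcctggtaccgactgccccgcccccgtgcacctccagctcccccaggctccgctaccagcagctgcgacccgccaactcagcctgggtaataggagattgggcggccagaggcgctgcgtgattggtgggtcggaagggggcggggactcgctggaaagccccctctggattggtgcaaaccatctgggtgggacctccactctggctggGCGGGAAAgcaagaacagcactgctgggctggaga
CDC6 (chr17:40287629-40287908, plus strand): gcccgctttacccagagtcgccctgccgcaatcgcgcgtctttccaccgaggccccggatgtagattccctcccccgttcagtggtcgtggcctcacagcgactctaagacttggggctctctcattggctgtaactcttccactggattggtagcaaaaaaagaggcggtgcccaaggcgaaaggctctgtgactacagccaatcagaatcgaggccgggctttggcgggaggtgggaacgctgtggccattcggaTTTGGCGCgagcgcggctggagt
MCM6 (chr2:135876414-135876693, minus strand): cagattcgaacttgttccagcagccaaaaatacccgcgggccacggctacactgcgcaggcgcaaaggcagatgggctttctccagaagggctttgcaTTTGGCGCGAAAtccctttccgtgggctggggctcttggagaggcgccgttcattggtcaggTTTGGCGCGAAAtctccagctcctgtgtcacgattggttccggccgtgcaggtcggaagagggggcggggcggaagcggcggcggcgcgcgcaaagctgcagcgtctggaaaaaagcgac
PCNA (chr20:5126593-5126872, minus strand): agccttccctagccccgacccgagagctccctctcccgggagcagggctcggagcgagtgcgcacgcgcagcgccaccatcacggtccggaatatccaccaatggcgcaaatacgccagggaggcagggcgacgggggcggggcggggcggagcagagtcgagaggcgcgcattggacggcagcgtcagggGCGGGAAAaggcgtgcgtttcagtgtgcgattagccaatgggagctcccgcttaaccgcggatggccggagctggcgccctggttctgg
In CLSPN the word TTTCCCGC lies on the opposite strand and so reads GCGGGAAA, beginning 5 bases before the start. In CDC6 the word TTTGGCGC begins 7 bases after it. MCM6 holds 4 words as 2 copies of TTTGGCGCGAAA, in which TTTGGCGC overlaps TTTCGCGC of the other strand, and the copies begin 152 and 90 bases before the start. In PCNA the word TTTCCCGC, again on the opposite strand, begins 59 bases before the start. A word is a match of letters and no measure of binding.

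Calls were found among genes with and without such a word. Of the 21 with a word, 15 were called lower, with a median log2 fold change of -0.63. Of the 20 without one, 10 were called lower, with a median of -0.45. Words were found in 4 of 9 licensing genes, 8 of 11 helicase genes, 4 of 8 polymerase genes, 3 of 8 clamp genes and 2 of 5 fork protection genes with a window. ORC1 and MCM10, among the genes that fell most, held none in the window searched. Among all tested genes with a window, 64 of 741 with a word (8.64%) and 424 of 10550 without (4.02%) were called lower. With the 47 replication genes left out, 49 of 720 with a word were called lower (6.81%).

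Among licensing genes, those for ORC1, CDC6 and geminin fell, and the other ORC subunits did not pass the test. ORC1 (ENSG00000085840.13) encodes the large ATP-binding subunit of ORC and stood at 32.9, 32.5 and 27.3 CPM in control replicates 1 to 3 and at 17.6, 17.3 and 15.02 CPM in leptin replicates 1 to 3. Every leptin library lay below every control. It fell from 30.9 ± 3.13 to 16.7 ± 1.42 CPM (mean ± SD, n = 3 each), with a log2 fold change of -0.89 ± 0.13 (SE) and an edgeR adjusted p of 0.00451. CDC6 (ENSG00000094804.12), the ATPase that joins ORC to recruit the MCM ring, stood at 85.8, 81.2 and 96.7 CPM in controls and at 54.9, 44.4 and 47.3 CPM with leptin. The groups were clearly apart, with control replicate 3 the highest. CDC6 fell from 87.9 ± 7.99 to 48.9 ± 5.46 CPM, with a log2 fold change of -0.85 ± 0.12 (adjusted p = 0.00407 in edgeR). GMNN encodes geminin, which binds CDT1 and blocks licensing again in S and G2 phase, and stood at 47.2, 41.2 and 49.3 CPM in controls and at 32.1, 27.1 and 32.3 CPM with leptin. Again no leptin library reached a control. It fell by 0.59 ± 0.12 on the log2 scale (adjusted p = 0.01599 in edgeR).

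The other ORC genes were nearer to their control levels. ORC6, the smallest subunit, stood at 23.04, 20.7 and 22.4 CPM in controls and at 14.99, 16.2 and 17.5 CPM with leptin, a log2 fold change of -0.44 ± 0.13 with an edgeR adjusted p of 0.05102. Its groups did not overlap, and it passed with DESeq2. ORC5 stood at 14.2, 14.2 and 13.3 CPM in controls and at 13.9, 17.6 and 16.03 CPM with leptin, a log2 fold change of 0.19 ± 0.14 (adjusted p = 0.424 in edgeR), with overlap between the groups. ORC2, ORC3 and ORC4 had log2 fold changes of -0.27, -0.12 and 0.08 (adjusted p = 0.159, 0.591 and 0.721 in edgeR). Over ORC1 to ORC6 the median log2 fold change was -0.20 and 1 of 6 was called lower. CDT1, the loading factor that geminin inhibits, was chosen for description after its values were seen and stood at 88.4, 88.6 and 90.1 CPM in controls and at 69.5, 87.3 and 78.9 CPM with leptin. All 3 leptin libraries lay below the controls, leptin replicate 2 by little, and its log2 fold change of -0.18 ± 0.11 did not pass (adjusted p = 0.323 in edgeR). Leaving out control replicates 1, 2 and 3 in turn gave 1, 3 and 2 licensing genes called lower, and leaving out leptin replicates 1, 2 and 3 gave 4, 3 and 2. ORC1 no longer passed once control replicate 1 was left out (adjusted p = 0.05103 in edgeR), and GMNN failed without control replicate 1 (adjusted p = 0.107), control replicate 3 or leptin replicate 3.

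Nearly every gene of the helicase and of origin firing fell, and in all 14 the leptin libraries lay below the controls. MCM4 (ENSG00000104738.19), a subunit of the MCM ring, stood at 286, 279 and 279.8 CPM in control replicates 1 to 3 and at 175, 146 and 143 CPM in leptin replicates 1 to 3. The 3 controls were within a narrow range, and leptin replicate 1 was the highest of the leptin libraries. MCM4 fell from 282 ± 3.96 to 155 ± 17.7 CPM, with a log2 fold change of -0.87 ± 0.11 (adjusted p = 0.00334 in edgeR). MCM6, another subunit of the ring, stood at 91.8, 93.2 and 91.7 CPM in controls and at 61.6, 46.8 and 51.3 CPM with leptin, again with leptin replicate 1 above the other leptin libraries. It fell from 92.2 ± 0.817 to 53.2 ± 7.61 CPM (log2 fold change -0.79 ± 0.12, adjusted p = 0.00494 in edgeR). MCM10, which activates the loaded helicase and is not part of the ring, stood at 23.2, 21.5 and 24.6 CPM in controls and at 12.97, 10.1 and 11.5 CPM with leptin. No leptin library came near a control. The fall of MCM10 from 23.1 ± 1.56 to 11.5 ± 1.44 CPM (log2 fold change -1.004 ± 0.14, adjusted p = 0.00407 in edgeR) left 49.9% of the control level. CDC45 (ENSG00000093009.11), the cofactor that travels with the ring and GINS as the active helicase, stood at 38.5, 39.3 and 43.9 CPM in controls and at 25.9, 19.8 and 22.9 CPM with leptin. The groups were apart, and CDC45 fell from 40.6 ± 2.93 to 22.9 ± 3.05 CPM (log2 fold change -0.83 ± 0.13, adjusted p = 0.00573 in edgeR).

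Subunits of the MCM ring fell by unequal amounts as counted. MCM3, MCM5 and MCM7 fell by 0.60, 0.48 and 0.49 on the log2 scale (adjusted p = 0.00845, 0.0283 and 0.0178 in edgeR). MCM2 did not pass, at 121, 127 and 129 CPM in controls and at 117, 109 and 95.7 CPM with leptin. Its leptin libraries lay below the controls but close to them, with a log2 fold change of -0.24 ± 0.11 (adjusted p = 0.187 in edgeR). Thus 5 of 6 ring subunits were called lower, with a median of -0.54. With the GC trend removed the falls of MCM3, MCM5, MCM6 and MCM7 were closer together, at -0.60, -0.61, -0.68 and -0.63. MCM2 and MCM4 then stood at -0.39 and -0.82. All 4 GINS genes, whose products bridge the ring and CDC45, fell. Their log2 fold changes were -0.68 for GINS1, -0.72 for GINS2, -0.73 for GINS3 and -0.67 for GINS4 (adjusted p = 0.00712, 0.0434, 0.0156 and 0.01003 in edgeR). GINS2 had the widest spread, at 33.7, 31.4 and 29.9 CPM in controls and at 25.3, 13.1 and 19.4 CPM with leptin, and its standard error of 0.20 was the largest of the 4. CDC7 and DBF4 encode the kinase that fires licensed origins and its activating subunit. CDC7 stood at 7.75, 10.1 and 9.302 CPM in controls and at 4.84, 4.94 and 4.22 CPM with leptin, with no overlap, and fell by 0.95 ± 0.19 on the log2 scale (adjusted p = 0.0143 in edgeR). DBF4 fell by 0.67 ± 0.16 (adjusted p = 0.02604 in edgeR), with 3 nearly equal leptin libraries at 9.63, 9.56 and 9.50 CPM below controls of 15.1, 12.9 and 17.6 CPM.

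Calls for the helicase genes depended on the libraries kept. Without control replicates 1, 2 and 3, 4, 6 and 3 of the 14 were called lower, and without leptin replicates 1, 2 and 3, 14, 10 and 6. MCM4, MCM6 and MCM10 passed in all 6 fits, with highest edgeR adjusted p-values of 0.0464, 0.0488 and 0.0464. CDC45 passed in 5, and its adjusted p was 0.0521 without control replicate 3. MCM3 and GINS1 passed in 4 and MCM7, GINS3, GINS4 and CDC7 in 2. DBF4, GINS2 and MCM5 passed in 1, the fit without leptin replicate 1. MCM2 was called lower in that fit alone.

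**Figure D3:**
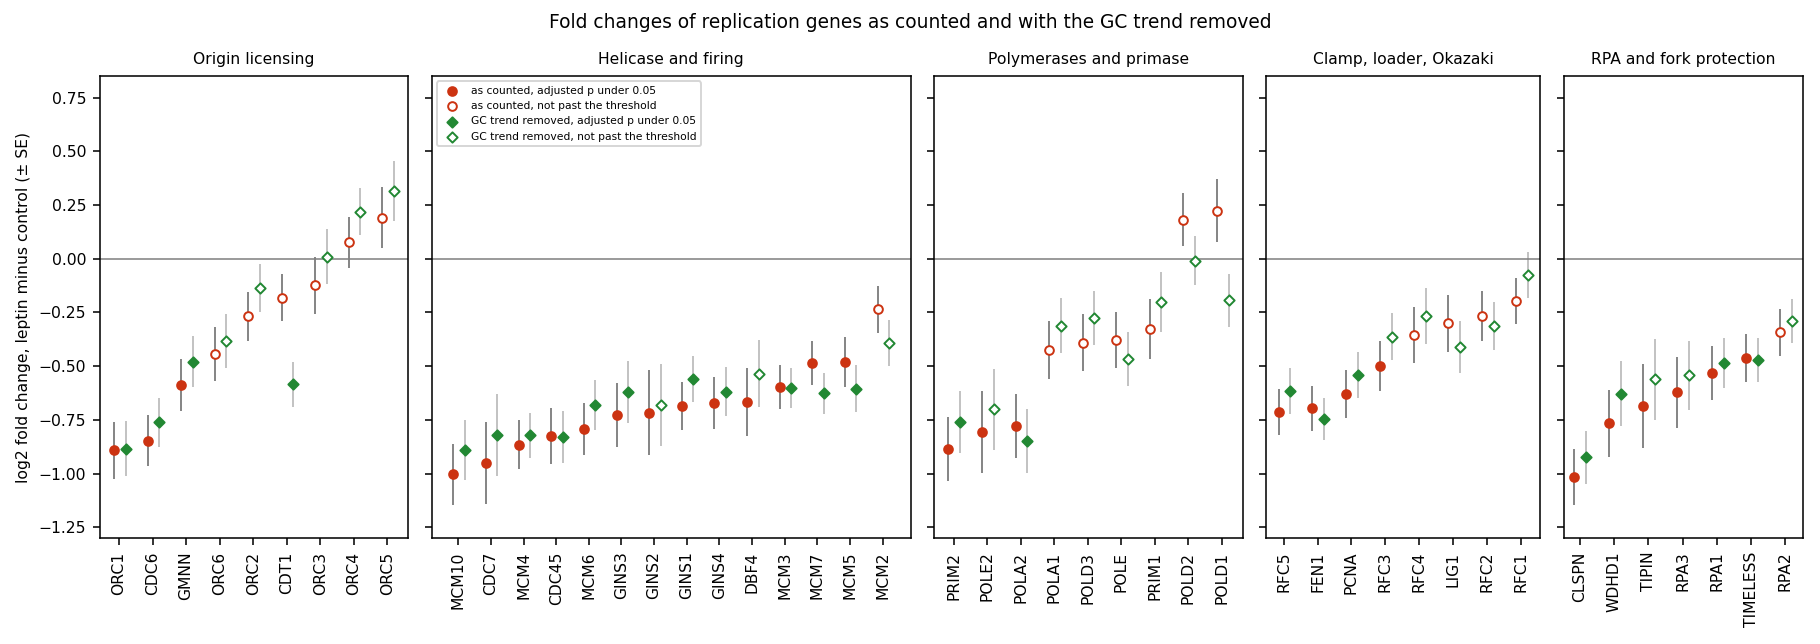
Log2 fold change, leptin minus control, with its standard error for each replication gene (3 libraries per group), circles as counted and diamonds after removal of each library's GC trend, filled where the adjusted p was under 0.05. Filled circles number 29 and filled diamonds 24, and CDT1 is filled in the second set alone.

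PRIM2, POLA2 and POLE2, subunits of primase and of polymerases alpha and epsilon, fell. POLA1, POLE, PRIM1, POLD1, POLD2 and POLD3 did not pass. PRIM2 (ENSG00000146143.19), the large subunit of primase, stood at 24.6, 19.2 and 21.8 CPM in control replicates 1 to 3 and at 11.2, 10.96 and 13.2 CPM in leptin replicates 1 to 3. The highest leptin library was below the lowest control. PRIM2 fell from 21.8 ± 2.69 to 11.8 ± 1.24 CPM, with a log2 fold change of -0.89 ± 0.15 (adjusted p = 0.00762 in edgeR). POLA2, the accessory subunit of polymerase alpha, stood at 17.98, 16.3 and 15.1 CPM in controls and at 10.7, 9.29 and 8.85 CPM with leptin, with no overlap, and fell by 0.78 ± 0.15 on the log2 scale (adjusted p = 0.0127 in edgeR). POLE2, the second subunit of polymerase epsilon, stood at 8.804, 8.45 and 10.7 CPM in controls and at 6.17, 5.15 and 4.63 CPM with leptin, also without overlap, and fell by 0.81 ± 0.19 (adjusted p = 0.0264 in edgeR). These 3 were the calls among 9 genes. POLA1, the catalytic subunit of polymerase alpha, stood at 27.99, 27.6 and 30.5 CPM in controls and at 20.4, 24.9 and 18.9 CPM with leptin. Its leptin libraries lay below the controls, but the log2 fold change of -0.42 ± 0.13 missed the threshold (adjusted p = 0.0684 in edgeR).

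POLD1 (ENSG00000062822.16), the catalytic subunit of polymerase delta, had the largest log2 fold change of the 47, and its leptin libraries straddled the controls. It stood at 88.9, 90.3 and 94.4 CPM in controls and at 83.6, 131 and 105 CPM with leptin, with leptin replicate 1 the lowest of the 6 libraries and leptin replicate 2 the highest. The log2 fold change was 0.22 ± 0.15 (adjusted p = 0.357 in edgeR). POLD2, its second subunit, described after its values were seen, stood at 149, 149 and 148 CPM in controls and at 139, 179.8 and 186 CPM with leptin, with the same split. Leptin replicate 1 was below the 3 nearly equal controls and the other leptin libraries were above them (log2 fold change 0.18, adjusted p = 0.374 in edgeR). Without leptin replicate 1 both were called higher, but not once the GC trend was removed as well. With all 6 libraries and the GC trend removed, POLD1 was at -0.19 and POLD2 at -0.01 on the log2 scale, so both changed sign without passing (adjusted p = 0.376 and 0.969 in edgeR). POLD3, POLE, the catalytic subunit of polymerase epsilon, and PRIM1, the catalytic subunit of primase, had log2 fold changes of -0.39, -0.38 and -0.33 and did not pass (adjusted p = 0.0818, 0.0874 and 0.156 in edgeR). In all 3 the groups did not overlap. Without control replicates 1, 2 and 3, 0, 1 and 0 of the 9 genes were called lower, and without leptin replicates 1, 2 and 3, 6, 3 and 1. At an unadjusted p under 0.05, 7 of the 9 were lower in the fit of all 6 libraries, against 12.2% of all tested genes. The highest adjusted p over these fits was 0.0696 for PRIM2 and 0.0974 for POLA2, both without control replicate 1, and 0.1501 for POLE2 without control replicate 3.

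The sliding clamp, the flap nuclease and part of the clamp loader fell. FEN1 (ENSG00000168496.4), the nuclease that trims Okazaki fragments, stood at 145, 143 and 154 CPM in control replicates 1 to 3 and at 98.6, 84.3 and 89.1 CPM in leptin replicates 1 to 3. The groups were widely apart. FEN1 fell from 147 ± 5.74 to 90.7 ± 7.26 CPM (log2 fold change -0.70 ± 0.11, adjusted p = 0.00499 in edgeR). RFC5, a small subunit of the clamp loader, stood at 42.1, 40.8 and 44.95 CPM in controls and at 27.2, 24.9 and 25.95 CPM with leptin, with every leptin library lower, and fell from 42.6 ± 2.11 to 25.99 ± 1.15 CPM (log2 fold change -0.71 ± 0.11, adjusted p = 0.00516 in edgeR). PCNA (ENSG00000132646.11), the clamp that holds polymerases on DNA, stood at 196, 180.1 and 197 CPM in controls and at 134, 110.5 and 126 CPM with leptin. Leptin replicate 2 was the lowest, and the highest leptin library was below the lowest control. PCNA fell from 191 ± 9.43 to 123 ± 11.8 CPM (log2 fold change -0.63 ± 0.11, adjusted p = 0.00926 in edgeR). RFC3, another loader subunit, stood at 39.5, 32.2 and 35.6 CPM in controls and at 26.001, 25.2 and 24.8 CPM with leptin and fell by 0.50 ± 0.12 on the log2 scale (adjusted p = 0.0261 in edgeR).

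Other loader genes did not pass. RFC1, the large subunit, stood at 49.7, 56.03 and 57.1 CPM in controls and at 44.6, 50.05 and 47.3 CPM with leptin, with leptin replicate 2 just above control replicate 1, and its log2 fold change was -0.20 ± 0.11 (adjusted p = 0.266 in edgeR). RFC2 and RFC4 had log2 fold changes of -0.27 and -0.35 (adjusted p = 0.16004 and 0.108 in edgeR) without overlap between groups. LIG1, the ligase that seals Okazaki fragments, had a log2 fold change of -0.30 (adjusted p = 0.167 in edgeR), and leptin replicate 1, at 103 CPM, lay among the controls. Over RFC1 to RFC5 2 of 5 were called lower, with a median of -0.35. Without control replicates 1, 2 and 3, 0, 3 and 0 of the 8 genes of this group were called lower, and without leptin replicates 1, 2 and 3, 5, 3 and 3. The calls of FEN1, RFC5 and PCNA were lost without control replicate 1 or 3, with highest edgeR adjusted p-values of 0.0517, 0.0515 and 0.0773. RFC3 passed in 1 of the 6, the fit without leptin replicate 1.

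Genes of RPA, the single-strand binding complex, and of fork protection fell, with 1 exception in the test. CLSPN (ENSG00000092853.14) encodes claspin, the mediator between stalled forks and the checkpoint kinase CHK1, and stood at 41.8, 43.2 and 50.5 CPM in control replicates 1 to 3 and at 24.3, 22.99 and 19.6 CPM in leptin replicates 1 to 3. The highest leptin library was far below the lowest control. CLSPN fell from 45.2 ± 4.66 to 22.3 ± 2.44 CPM, with a log2 fold change of -1.02 ± 0.13 and the lowest adjusted p of the 47 (edgeR, 0.00298). WDHD1, which links polymerase alpha to the helicase, stood at 18.8, 18.3 and 19.2 CPM in controls and at 11.4, 12.8 and 8.91 CPM with leptin. It fell by 0.77 ± 0.16 on the log2 scale (adjusted p = 0.0156 in edgeR), with leptin replicate 3 the lowest. TIMELESS, the scaffold of the fork protection complex, stood at 152, 166 and 161 CPM in controls and at 122, 123 and 102 CPM with leptin, with no overlap, and fell by 0.46 ± 0.11 (adjusted p = 0.0275 in edgeR). TIPIN, its partner, fell by 0.69 ± 0.20 (adjusted p = 0.0488 in edgeR), and lost the call with limma-voom.

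All 3 RPA genes were lower in every leptin library, and 2 of them passed the test. RPA1, the largest subunit, stood at 121, 118 and 117 CPM in controls and at 95.9, 80.3 and 69.5 CPM with leptin and fell by 0.53 ± 0.13 on the log2 scale (adjusted p = 0.0254 in edgeR). RPA3, the smallest, fell by 0.62 ± 0.16 (adjusted p = 0.0388 in edgeR). RPA2, the middle subunit, stood at 59.6, 52.2 and 53.6 CPM in controls and at 45.9, 43.6 and 40.9 CPM with leptin, and its log2 fold change of -0.34 ± 0.11 did not pass (adjusted p = 0.0681 in edgeR). Without control replicates 1, 2 and 3 the number of calls among these 7 genes was 1, 1 and 1, and without leptin replicates 1, 2 and 3 it was 7, 3 and 1. CLSPN was the call in each of those with 1, and its highest edgeR adjusted p was 0.0305. RPA1, RPA3 and TIPIN passed without leptin replicate 1 only, and WDHD1 and TIMELESS also without leptin replicate 2.

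Fold changes in these libraries were related to GC content, and the replication genes lay below other genes of like GC content. Over all tested genes with a known GC content the Spearman correlation of fold change with GC content of the longest transcript was 0.39, a value across genes, which share libraries and are no independent replicates. For single libraries the correlation of GC content with the difference from the controls was 0.35, 0.27 and 0.38 in leptin replicates 1 to 3 and -0.22, 0.22 and -0.01 in control replicates 1 to 3. Genes ranked by GC content into 5 bins of equal size had median log2 fold changes of -0.13, -0.10, -0.03, 0.08 and 0.30 from the lowest to the highest. The bins held 9, 16, 9, 9 and 4 replication genes, of which 4, 12, 7, 6 and 0 were called lower, against 7.31%, 6.16%, 4.36%, 2.46% and 0.59% of all genes in each bin. The 4 in the highest bin were CDT1, MCM2, POLD1 and POLD2. Of the 47 genes, 44 lay below the median of their bin, and ORC3, ORC4 and ORC5 lay above it, ORC3 by little.

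After each library's GC trend had been removed, 24 of the 47 were called lower, 23 of them among the 29, against 2.82% of all tested genes. The median log2 fold change of the 47 was then -0.54. The calls lost were DBF4, GINS2, POLE2, RFC3, RPA3 and TIPIN, whose log2 fold changes were -0.54, -0.68, -0.70, -0.36, -0.54 and -0.56 in place of -0.67, -0.72, -0.81, -0.50, -0.62 and -0.69 (adjusted p = 0.0683, 0.06202, 0.0551, 0.079001, 0.0734 and 0.106 in edgeR). CDT1 was gained, with a log2 fold change of -0.59 in place of -0.18 (adjusted p = 0.0125 in edgeR). ORC5 was at 0.32 (adjusted p = 0.203 in edgeR). MCM4, FEN1 and CLSPN passed with the GC trend removed whichever library was left out.

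**Figure D4:**
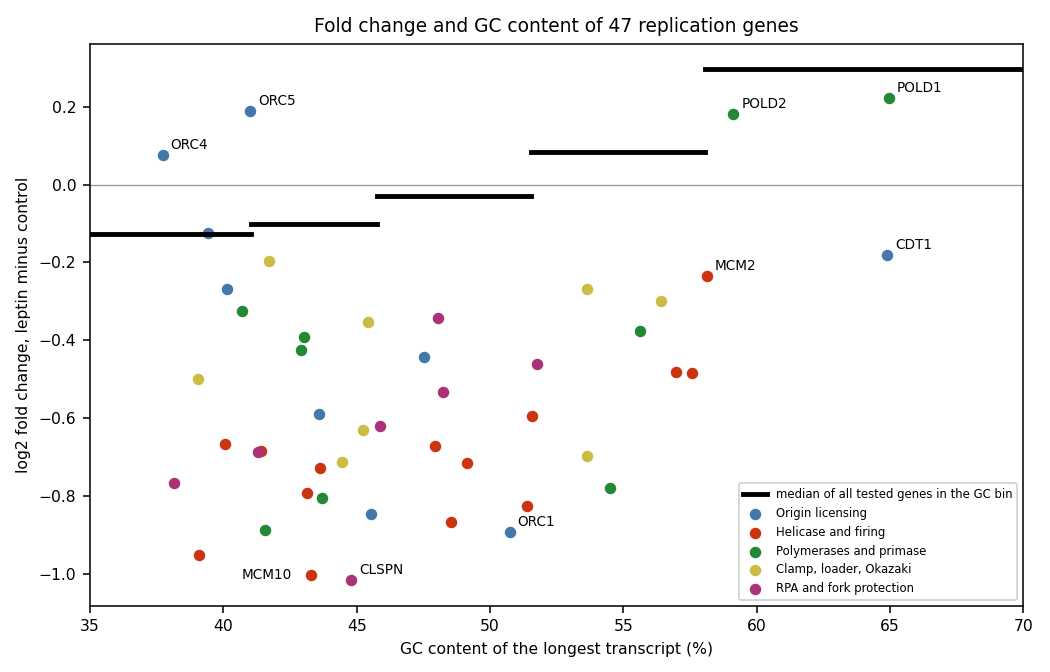
Log2 fold change of each replication gene against the GC content of its longest transcript in percent, coloured by role, with black bars for the median of all tested genes in each GC bin. Most points lie under the bars, which go from -0.13 to 0.30, and the 4 genes of the highest bin lie between -0.24 and 0.22.

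Levels per length were used to set transcripts side by side and to follow the proportions within complexes. The length was that of all annotated exon bases of a gene, whichever of its transcripts were present. The order of genes therefore depends on the annotation as well as on abundance. In controls MCM4 had more CPM than MCM3 (282 against 181), with exon lengths of 9852 and 3645 bases. How far a ratio between single genes moved from control to leptin does not depend on these lengths. Divided by exon length, PCNA was the highest, at 136 ± 6.72 CPM per kb in controls and 87.9 ± 8.44 with leptin, followed by FEN1 at 66.9 ± 2.61 and 41.2 ± 3.3. Of the MCM ring genes MCM3 was the highest, at 49.7 ± 0.744 and 32.9 ± 2.22, and MCM6 the lowest, at 22.3 ± 0.197 and 12.9 ± 1.84. POLA2 was the lowest of the 47 at 1.37 ± 0.119 and 0.7997 ± 0.079. Among the 47, MCM4 went from rank 7 to rank 13, and ORC1 from rank 22 to rank 29. The following ratios of levels per length were chosen after the values were seen and carry no test. The ratio of MCM2 to MCM4 was 0.934 ± 0.0421 in controls and 1.45 ± 0.0928 with leptin. The ratio of ORC1 to the median of ORC2 to ORC5 went from 1.75 ± 0.238 to 1.03 ± 0.120. That of CDT1 to GMNN, the loading factor to its inhibitor, was 1.75 ± 0.156 and 2.34 ± 0.489 as counted. With the GC trend removed CDT1 had a log2 fold change of -0.59 and GMNN one of -0.48, which turns the direction of this ratio. That of POLD1 to POLA2 was 13.6 ± 1.58 and 27.4 ± 7.69. With the GC trend removed MCM2 and MCM4 were at -0.39 and -0.82, and POLD1 and POLA2 at -0.19 and -0.85. The ratios of MCM2 to MCM4 and of POLD1 to POLA2 thus kept their direction with a smaller change. As counted, the groups did not overlap in these 4 ratios, while those of PCNA to RFC5, clamp to loader, did overlap, at 10.4 ± 0.338 and 10.98 ± 0.602.

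**Figure D5:**
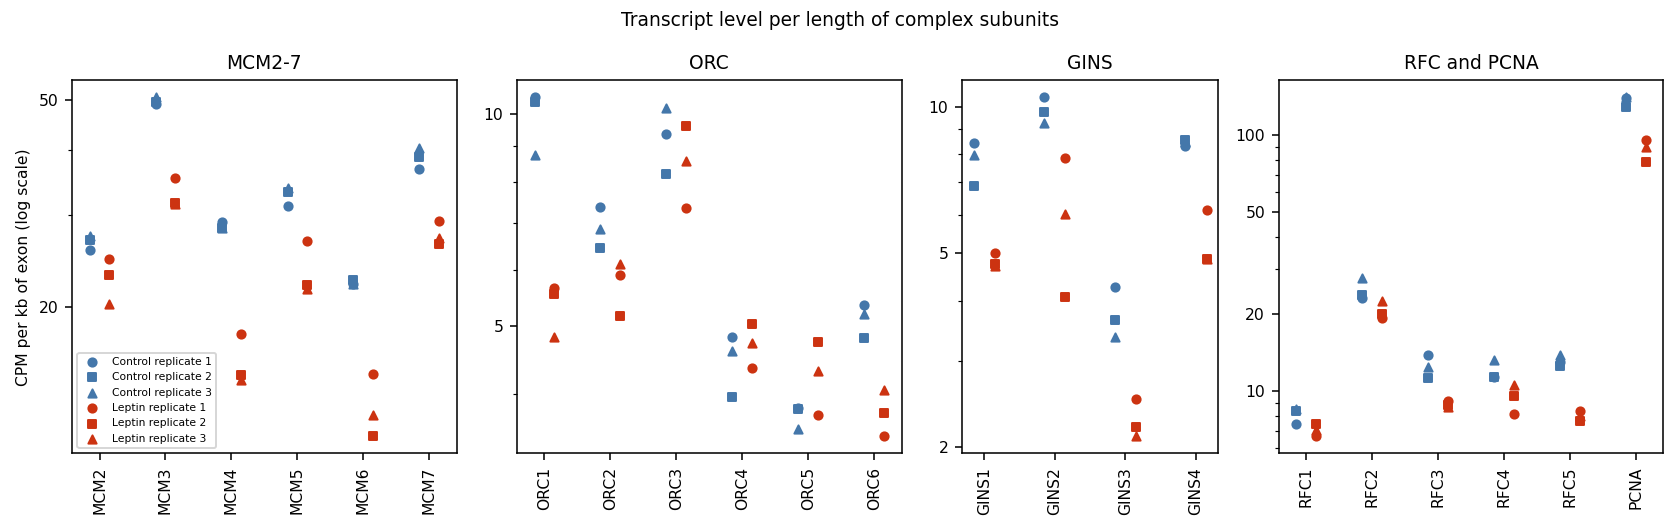
CPM per kb of exon, on a log axis, in each library for the subunits of the MCM ring, ORC, GINS and the clamp loader with PCNA, blue for Control and red for Leptin. In the MCM panel the groups of MCM4 and MCM6 lie farther apart than those of MCM2, and in the ORC panel ORC1 is near ORC3 in controls and near ORC2 with leptin.

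The wider replication machinery was described from a list of genes with known roles. Of its 33 further replication and chromatin assembly genes, 31 were tested, 6 were called lower and 0 higher by edgeR, with a median log2 fold change of -0.27, where 4.09% of all tested genes were called lower. By the unadjusted p under 0.05, 14 of the 31 were lower and 0 higher, against 12.2% and 15.4% of all tested genes. MMS22L, a factor of fork recovery, fell from 40.2 ± 2.41 to 25.5 ± 2.12 CPM (log2 fold change -0.66 ± 0.12, adjusted p = 0.00929 in edgeR). ATAD5, which unloads PCNA, fell from 21.8 ± 0.544 to 12.05 ± 2.37 CPM (log2 fold change -0.85 ± 0.16, adjusted p = 0.0102 in edgeR). SUPT16H, a subunit of the histone chaperone FACT, fell from 107 ± 5.31 to 73.01 ± 8.88 CPM (log2 fold change -0.56 ± 0.12, adjusted p = 0.0163 in edgeR). The other calls were TICRR, MTBP and TOPBP1, which act with the origin kinases in firing, and all 3 had values below control. Their log2 fold changes were -0.85, -0.70 and -0.56 (adjusted p = 0.0272, 0.0443 and 0.0225 in edgeR). CHTF8 and RNASEH2A had too few counts to test.

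Of 13 genes of E2F factors, their DP partners and the pocket proteins that restrain them, 3 were called lower and 0 higher, with a median log2 fold change of -0.24, beside the same 4.09% of all tested genes called lower. By the unadjusted p under 0.05, 6 were lower and 0 higher, beside 12.2% and 15.4%. E2F8, a repressor of the family, fell from 10.9 ± 0.445 to 6.51 ± 0.565 CPM (log2 fold change -0.74 ± 0.16, adjusted p = 0.01996 in edgeR). RBL1, which encodes the pocket protein p107, fell from 30.99 ± 0.78 to 20.7 ± 2.8 CPM (log2 fold change -0.58 ± 0.13, adjusted p = 0.0211 in edgeR). TFDP1, the main DP partner, fell from 190.03 ± 5.4 to 138 ± 21.5 CPM (log2 fold change -0.46 ± 0.13, adjusted p = 0.0433 in edgeR). The activator E2F1 stood at 158 ± 2.55 CPM under PBS and 134 ± 3.45 CPM under leptin and did not pass (log2 fold change -0.24 ± 0.10, adjusted p = 0.131 in edgeR). Every leptin library nevertheless lay below every control for E2F1. The gene is in the highest GC bin, where the median log2 fold change was 0.30. With the GC trend removed RBL1 and TFDP1 lost their calls (adjusted p = 0.0563 and 0.0829 in edgeR). MMS22L, ATAD5, SUPT16H, E2F8, RBL1 and TFDP1 all lost their calls without control replicate 1 (adjusted p between 0.0677 and 0.186 in edgeR) and without control replicate 3 (between 0.0705 and 0.182). SUPT16H, E2F8, RBL1 and TFDP1 also lost them without control replicate 2 (between 0.0678 and 0.127) and, with ATAD5, without leptin replicate 3 (between 0.0545 and 0.114). E2F8 and TFDP1 lost them without leptin replicate 2 as well (0.0507 and 0.0782).

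Overlap with other genes could lower the counts of some of the 47, since read pairs over exons of several genes were not counted. Exons of 22 overlapped those of another gene, 18 of them with a gene on the opposite strand, and the overlap exceeded 20% of the exon bases in MCM2 (23.6%), GINS4 (23.4%), POLA2 (21.3%) and TIPIN (21.1%). These 4 values are therefore less certain as levels. For 10 genes the annotation holds a pseudogene of the same name, and its counts were at most 0.478% of the gene's own.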

How the data were processed

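The deposited tables, 1 for each library, hold raw counts by gene. The authors used featureCounts 2.0.1 on exons of GENCODE release 44, per the file headers, counting pairs with no strand setting and leaving out multi-mapping pairs or pairs over several genes. Per the labels' protocols the kit was directional. Alignment with HISAT2 2.0.5 to hg38 and use of DESeq2 are given in the submitters' processing notes, which list featureCounts as 1.5.0-p3 instead. Counting without strand and dropping pairs over several genes lowers counts of overlapping genes. Other columns of per-sample values numbered 0.

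All 62700 IDs matched a symbol. Counts of 3 Control and 3 Leptin libraries, with totals between 15609425 and 18577775, were fitted in R 4.3.3 with edgeR 4.0.16: filterByExpr (minimum count 10, minimum total 15), TMM scaling, robust quasi-likelihood tests with no replicate block, and p-values adjusted by Benjamini-Hochberg over all 15685 genes tested, at 0.05. CPM used TMM-scaled totals, and principal components log2 CPM with a prior count of 2. Same-group libraries differed beyond sampling noise (chi-square per gene 5.24 to 5.61 between controls and 19.2 to 45.4 with leptin). Each library was fitted as 1 sample, although this spread does not show that replicates were separate cultures. Same-numbered libraries did not deviate together.

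The 47 genes, their role groups and the comparison lists were chosen with earlier results of these data known. Values per library were printed for the 4 genes of each role group with the smallest p and for the one with the largest log2 fold change, and from the replication and E2F lists the 3 with the smallest p were described. Genes described beyond that rule were chosen after their values were seen. Alternatives were DESeq2 1.42.0, limma-voom (3.58.1), different scaling and filtering, a threshold of 0.01, a replicate block, correction of every library for its GC trend (lowess, span 0.3, GC content of the longest GENCODE transcript, known for 97.2% of tested genes) and leaving out each library, with and without that correction. In a test on simulated counts for Leptin against Control with 15410 genes, edgeR found 71 of the 99 genes set to change 2-fold, 94 of the 98 set to change 4-fold, and 12 that had not been changed. With a GC trend added to the simulated leptin libraries (15377 genes), 4851 unchanged genes passed, and 12 after the correction (15375 genes), which tests the correction and does not count false calls in the deposited data. Figures were drawn with matplotlib 3.10.9.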

Additional observations from a re-analysis of the deposited data

How the results depend on the processing

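All 29 replication genes called lower kept a negative fold change in all alternatives run. Other scalings, filters and tools gave between 28 and 32 genes called lower, and DESeq2 and limma-voom gave 30 and 28. The share of all genes called lower in these fits lay between 2.92% (no filter on low counts) and 6.2% (DESeq2). With an adjusted p under 0.01 the count of replication genes called lower was 13, with 6 among helicase genes, 1 among polymerase genes and 1 among fork protection genes. At that threshold 274 genes were called over all tested genes, and 0.803% of tested genes were called lower. Genes called over all numbered 2437 with no filter on low counts, 868 with the GC trend removed and 942 with the GC trend removed and a replicate block together. Replicate numbers did not pair the libraries (correlations of deviations -0.05, 0.01 and -0.11 for numbers 1 to 3). With a replicate block 28 of the 47 were called lower, TIPIN being lost, and 1303 genes over all, with 3.41% of tested genes called lower.

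With each library left out in turn, the genes called over all ranged from 115 to 4761, and with the GC trend removed from 48 to 4012 (48, 87 and 56 without control replicates 1 to 3, and 4012, 427 and 85 without leptin replicates 1 to 3). Replication genes called lower ranged from 6 to 36 (GC trend removed, 3 to 34), and those called higher from 0 to 2 (0 to 1, the 1 being ORC5). Of all tested genes, between 0.371% and 13.5% were called lower in these fits. With the GC trend removed the shares were 0.179%, 0.276% and 0.222% without control replicates 1 to 3, and 12.1%, 1.51% and 0.297% without leptin replicates 1 to 3. The fit that called ORC5 higher, without leptin replicate 1, called 2062 of 16101 tested genes higher. By role the counts called lower ranged from 1 to 4 for licensing (0 to 4), 3 to 14 for helicase (1 to 14), 0 to 6 for polymerases (0 to 5), 0 to 5 for the clamp group (1 to 5) and 1 to 7 for fork protection (1 to 6). Over all 47 genes the lowest count came without control replicate 1 or 3 as counted, and the highest without leptin replicate 1. The cause of these shifts was not tested. The lowest count of a replication gene in a library was 71.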
